A study of Homo sapiens with 3 samples.

Results

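The genes described here are the members of the ZBTB family of transcription factors that the arrays measured. The family was chosen with earlier results of these data known. Its members were taken by symbol, as genes named ZBTB with a number and at most 1 letter after it. Only probe sets annotated to a single gene were used. This gave 41 genes with 93 probe sets, of 18239 genes and 49386 probe sets in all. Messenger RNA was measured on Affymetrix 3′ expression arrays in A498, an established line of human renal carcinoma cells without functional VHL. There were 3 arrays, 1 for each culture. All cultures were confluent layers in serum-free medium with gentamicin, and RNA was taken at 4 h. The control culture held 0.08% DMSO, another culture held E. coli 83972, a bladder-colonizing strain that causes no symptoms, and the last held DRB at 60 µM. DRB, a nucleoside analogue, stops RNA polymerase II in elongation by inhibiting the kinase CDK9. The labels give DMSO for the control only, so DMSO and the treatments cannot be told apart, and they disagree on the bacterial concentration, which is not given here. All 3 arrays carry the same experiment number. With 1 array per group no test was possible, and every difference below is between single arrays.

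ZBTB proteins join an N-terminal BTB domain to C-terminal zinc fingers. The zinc fingers bind DNA, and the BTB domain pairs 2 molecules and recruits corepressor complexes with histone deacetylases, so that most members studied repress transcription. Members are known for lineage choice in lymphocytes, for binding to methylated DNA and for control of the cell cycle through MYC and p53 targets.

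Levels are probe-set values on a log2 scale. A gene's value is that of its brightest probe set, by the mean of the arrays, and a gene passed the filter on low signal when its highest value reached 4.88, the median of all values. Levels of different genes are not set against each other, since probes differ in affinity. Of the 41 genes, 26 passed the filter and 15 did not. A gene high on a single array passes this filter, so counts over those that passed carry its choice. A gene is counted as different when the values differ by at least 2-fold, which is 1 on the log2 scale.

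The sequences just upstream of annotated starts are shown for ZBTB18, ZBTB20, ZBTB21 and ZBTB46, since the first 3 had the differences described most closely below and the last had probe sets that disagreed. They are 250 bases from RefSeq, build GRCh38.p14, each read 5′ to 3′ on the gene's strand and ending at the base before the start. Where a gene has several annotated starts the outermost is shown. Capitals mark a GC box (GGGCGG, bound by SP and KLF factors) or a CCAAT box (CCAAT) on either strand, the only motifs of those searched that these 4 windows held. The ZBTB18 window lies at chr1:244048403-244048652 on the plus strand, that of ZBTB20 at chr3:115147289-115147538, that of ZBTB21 at chr21:42010361-42010610 and that of ZBTB46 at chr20:63831265-63831514, these 3 on the minus strand.
ZBTB18: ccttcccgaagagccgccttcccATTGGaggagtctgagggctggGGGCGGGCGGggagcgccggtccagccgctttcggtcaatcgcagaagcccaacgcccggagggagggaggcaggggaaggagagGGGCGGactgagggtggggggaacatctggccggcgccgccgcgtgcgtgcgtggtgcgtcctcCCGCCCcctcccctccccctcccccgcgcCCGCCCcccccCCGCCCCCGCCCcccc
ZBTB20: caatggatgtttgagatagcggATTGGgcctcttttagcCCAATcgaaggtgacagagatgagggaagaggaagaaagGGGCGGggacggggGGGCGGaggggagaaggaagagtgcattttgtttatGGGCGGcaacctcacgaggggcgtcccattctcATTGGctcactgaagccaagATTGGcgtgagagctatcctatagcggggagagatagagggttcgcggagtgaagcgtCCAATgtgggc
ZBTB21: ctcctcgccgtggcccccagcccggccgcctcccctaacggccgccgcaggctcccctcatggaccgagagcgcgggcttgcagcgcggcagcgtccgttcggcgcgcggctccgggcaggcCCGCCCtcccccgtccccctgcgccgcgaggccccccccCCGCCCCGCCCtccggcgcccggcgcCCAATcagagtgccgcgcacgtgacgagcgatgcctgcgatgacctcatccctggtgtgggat
ZBTB46: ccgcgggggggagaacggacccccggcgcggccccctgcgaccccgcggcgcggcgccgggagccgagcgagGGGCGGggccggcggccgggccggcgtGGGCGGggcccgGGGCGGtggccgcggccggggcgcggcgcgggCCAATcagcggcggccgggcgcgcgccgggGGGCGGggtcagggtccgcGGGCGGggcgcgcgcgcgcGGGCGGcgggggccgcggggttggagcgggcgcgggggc

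The ZBTB18 window held 7 GC boxes and 1 CCAAT box, the ZBTB20 window 3 and 5, the ZBTB21 window 3 and 1, and the ZBTB46 window 6 and 1. Adjacent GC boxes share bases in the ZBTB18 and ZBTB21 windows. The ZBTB46 window was 91.6% G or C with 55 CpG pairs, the ZBTB21 window 78.4% with 36, the ZBTB18 window 77.2% with 26 and the ZBTB20 window 56% with 13. ZBTB18 has 3 annotated starts in this table, ZBTB20 has 8 and the others 1 each. The 8 ZBTB20 windows ranged from 32.4% to 56% G or C and the 3 ZBTB18 windows from 31.2% to 77.2%. For both genes the window shown is the richest. The arrays read the 3′ part of a transcript and do not tell which start was used.

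**Figure D1:**
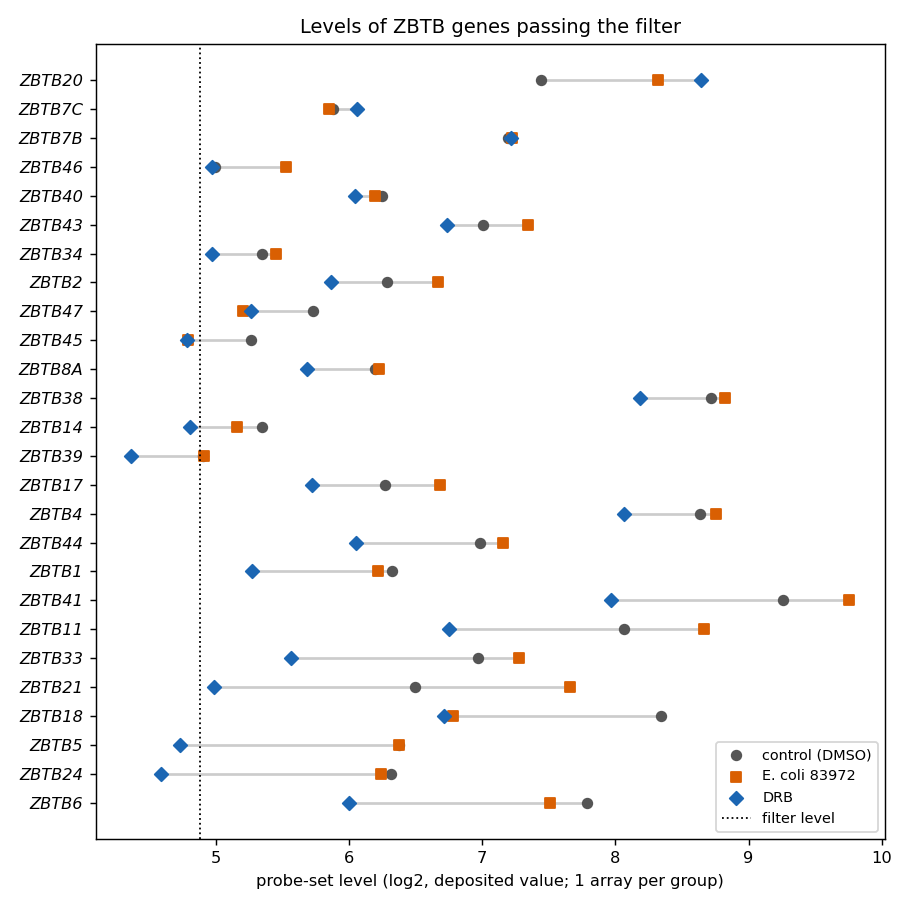
Levels of the 26 ZBTB genes that passed the filter, as deposited log2 probe-set values (horizontal axis), with 1 point for each of the control, E. coli 83972 and DRB arrays and the filter level of 4.88 as a dotted line. The DRB point is the lowest of the 3 in 22 genes, and ZBTB20 and ZBTB7C are the genes with their highest point on the DRB array.

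Most ZBTB transcripts read lowest on the DRB array. Of the 26 genes that passed the filter, 22 had their lowest value there, 2 on the control array and 2 on the E. coli 83972 array, while 16 had their highest value with E. coli 83972, 8 on the control and 2 with DRB. Over all genes that passed the filter the lowest value was on the DRB array in 35.8%, on the control in 24.8% and on the E. coli 83972 array in 39.4%, and the highest was with E. coli 83972 in 27.3%, on the control in 23.7% and with DRB in 48.9%. Their levels ran from 4.90 to 9.26 on the control array with a median of 6.35, from 4.79 to 9.75 with E. coli 83972 with a median of 6.68, and from 4.37 to 8.64 with DRB with a median of 5.80. ZBTB20 departed from this order, ZBTB18 was low on both treated arrays, and ZBTB21 had the widest spread.

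ZBTB18, also known as RP58, is a repressor required for the development of cortical neurons. It read 8.34 on the control array, 6.78 with E. coli 83972 and 6.71 with DRB. Both treated arrays were thus below the control and, in the deposited values, close to each other. The level was 2.94-fold lower with E. coli 83972 (log2 −1.56) and 3.09-fold lower with DRB (−1.63), and the treated arrays differed by 0.07. Both comparisons use the same control array, so a high value on that array would enter both. The values come from a single probe set of the _s_at type, whose probes can match more than 1 transcript. The other 2 ZBTB18 probe sets stayed below the filter on all arrays, at 3.49, 3.52 and 3.66 and at 3.11, 3.05 and 2.87 for control, E. coli 83972 and DRB. With the mean over all 3 probe sets the differences were −0.53 and −0.57, under 2-fold. Centring on poly-A spike-ins gave −1.53 with E. coli 83972 and −2.47 with DRB, so that E. coli 83972 minus DRB was 0.93. That last difference was −0.03 with hybridization spike-ins and 0.16 with all spike-ins.

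ZBTB20 represses alpha-fetoprotein in liver and acts in the development of the hippocampus. It read 7.44 on the control array, 8.32 with E. coli 83972 and 8.64 with DRB. Both treated arrays were above the control, in the opposite direction to ZBTB18. The difference was 1.20 with DRB, 2.29-fold higher, and 0.88 with E. coli 83972, 1.84-fold higher. A second probe set read 6.56, 7.59 and 7.88 on the same arrays, which is 1.03 higher with E. coli 83972 and 1.32 higher with DRB. The mean over both was 1.26 ± 0.09 with DRB and 0.95 ± 0.11 with E. coli 83972 (SD over 2 probe sets, not over cultures). Centring the arrays on spiked-in control RNA lowered the DRB value to 0.97 with hybridization spike-ins, 0.81 with all spike-ins and 0.36 with poly-A spike-ins, above 0 but under 2-fold in each.

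ZBTB21, a repressor that binds its relative ZBTB14, is the member whose treated arrays lay farthest apart. It read 6.50 on the control array, 7.66 with E. coli 83972 and 4.98 with DRB. The control lay between the treated arrays. The level was 2.24-fold higher with E. coli 83972 (1.16) and 2.85-fold lower with DRB (−1.51), so the treated arrays differed by 2.67. A second probe set read 6.01, 7.47 and 4.15, with differences of 1.46 and −1.85. The last set was below the filter on all arrays, at 3.70, 4.32 and 4.11. Centring on hybridization or all spike-ins left the E. coli 83972 difference at 0.83 and 0.86, under 2-fold.

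The comparison of E. coli 83972 with control asks which members differed after 4 h with the bacterium. Few did. By the probe set that represents each gene, ZBTB21 was the only member at least 2-fold higher and ZBTB18 the only one at least 2-fold lower among the 26, each 3.85% of them. Over all 11653 genes that passed the filter 1.91% were higher by this measure and 0.652% lower; the count here is a single member in each direction. The median difference of the 26 was 0.07, with 17 above 0 and 9 below, against −0.03 over all genes. This median turned to −0.27 with centring on hybridization spike-ins and −0.24 on all spike-ins, under which 0 members were higher and 1 lower, so its direction depends on the scaling. Technical error was measured by the disagreement of the brightest pair of probe sets of a gene, divided by the square root of 2. The standard deviation of this, an error per probe set, was 0.12 (robust) or 0.18 (plain), and leaves out the variation between cultures.

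Among members that passed the filter, the next largest increases under 2-fold after those of ZBTB21 and ZBTB20 were those of ZBTB11, a nuclear factor needed for mitochondrial function, and ZBTB46, which marks classical dendritic cells. ZBTB11 read 8.06 on the control array and 8.66 with E. coli 83972, a difference of 0.60. ZBTB46 had the largest disagreement between its probe sets. The brightest read 4.99 and 5.53, a difference of 0.54, while another read 4.29 and 5.96, a difference of 1.67, and the mean over these 2 was 1.10 ± 0.80 (SD over probe sets). The remaining set, below the filter, read 4.39 and 4.29. On the DRB array these 3 sets read 4.97, 4.17 and 4.41, within 0.12 of the control. The largest decreases after ZBTB18 among the same 26 were those of ZBTB47, from 5.73 to 5.20 (−0.53), and ZBTB45, a regulator of glial differentiation, from 5.27 to 4.79 (−0.48). On the DRB array ZBTB47 and ZBTB45 read 5.26 and 4.78.

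**Figure D2:**
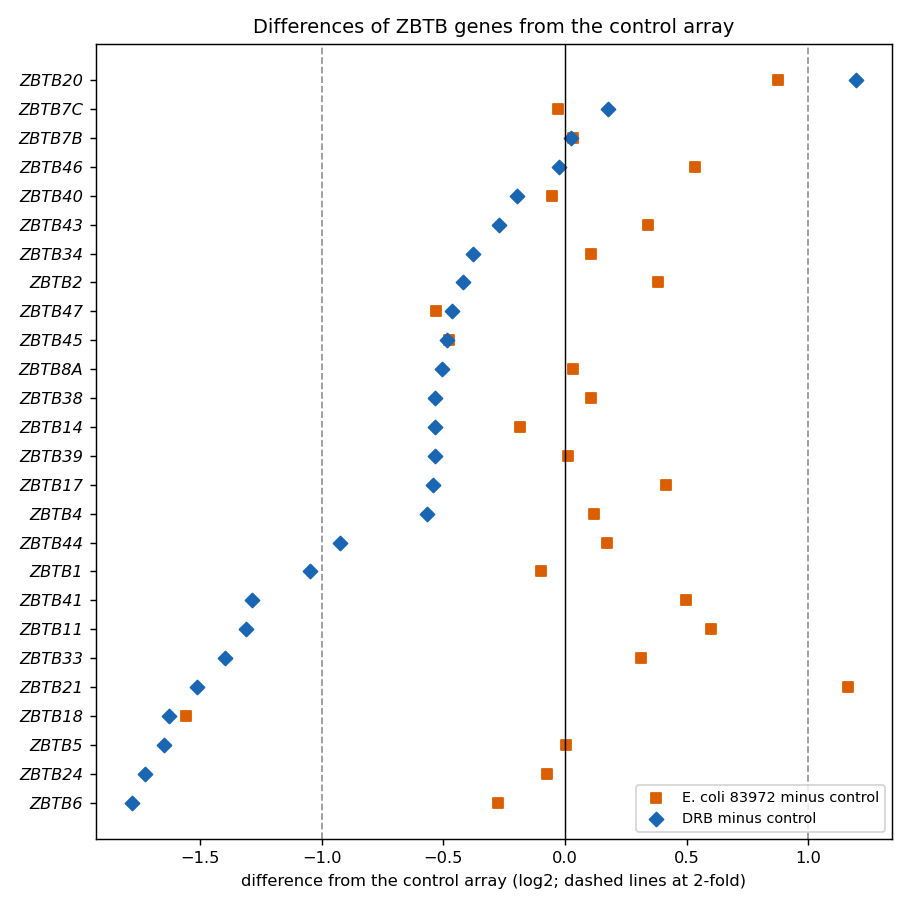
Difference from the control array on the log2 scale (horizontal axis) for the 26 ZBTB genes that passed the filter, with squares for E. coli 83972 and diamonds for DRB, both taken from the same control array, and dashed lines at 2-fold. The DRB values run from −1.78 (ZBTB6) to 1.20 (ZBTB20), and 9 lie at least 2-fold below the control.

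The comparison of DRB with control asks which members differed after 4 h with a block of elongation. Here 9 of the 26 members were at least 2-fold lower (34.6%) and 1 at least 2-fold higher, ZBTB20 (3.85%). Over all genes that passed the filter 10.2% were lower by this measure and 0.129% higher. The median difference of the members was −0.53, with 23 below 0 and 3 above, against 0.05 over all genes. The members below 0 by at least 2-fold lay between −1.05 and −1.78, and 0 were below −2, while 2.32% of all genes were. The technical standard deviation was 0.15 (robust; plain 0.32).

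Of the 3 methyl-CpG binding members, all past the filter, 1 was at least 2-fold lower with DRB, against 10.2% of all genes. ZBTB33, known as Kaiso, read 6.97 on the control array, 7.28 with E. coli 83972 and 5.57 with DRB, which is 2.64-fold lower with DRB (−1.40). It has 1 probe set. ZBTB4 read 8.63, 8.76 and 8.07 and ZBTB38 8.72, 8.83 and 8.18, so both were under 2-fold with DRB (−0.57 and −0.53). Among members of lymphoid and myeloid lineages 4 of 7 passed the filter and 2 were at least 2-fold lower, against the same 10.2%. ZBTB24, mutated in the immunodeficiency syndrome ICF, read 6.31, 6.24 and 4.59 and was 3.30-fold lower with DRB (−1.72). Its value rests on 1 probe set of the _x_at type, some of whose probes can cross-hybridize. The DRB reading of this set lay below the filter level of 4.88. ZBTB1, required for lymphoid development, read 6.32, 6.22 and 5.27 (−1.05), and its second probe set read 5.59, 5.37 and 3.85 (−1.74). ZBTB7B, known as ThPOK and required for CD4 T cells, read 7.19, 7.23 and 7.22 and so differed by at most 0.03 from the control.

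Of the members tied to growth, MYC and p53, 4 of 6 passed the filter. ZBTB5, a repressor of the p21 gene, read 6.37 on the control array, 6.38 with E. coli 83972 and 4.73 with DRB, 3.13-fold lower with DRB (−1.65). The E. coli 83972 and control arrays differed by 0.0027, so DRB alone stood apart. The DRB reading of ZBTB5 also lay below the filter level. ZBTB17, known as MIZ1, a partner of MYC, read 6.27, 6.69 and 5.73 (−0.54 with DRB). A second ZBTB17 probe set that passed the filter read 5.56, 5.41 and 5.86 and so went the other way with both treatments. ZBTB2 read 6.29, 6.67 and 5.87. ZBTB7C, a relative of the oncogene ZBTB7A, read 5.88, 5.85 and 6.06, and its DRB value was 0.18 above control. ZBTB7A itself passed the filter on none of its 4 probe sets.

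Among the 20 less characterised members 12 passed the filter, and 4 were at least 2-fold lower with DRB, against 10.2% of all genes. These were ZBTB6, ZBTB21, ZBTB11 and ZBTB41. ZBTB6 had the largest decrease of the family, from 7.78 on the control array and 7.51 with E. coli 83972 to 6.00 with DRB, 3.44-fold (−1.78). ZBTB11 read 6.75 with DRB, 2.49-fold lower (−1.31). ZBTB41 read 9.26, 9.75 and 7.97, 2.44-fold lower (−1.29), and its second probe set read 8.10, 8.51 and 7.24 (−0.86). Both ZBTB11 and ZBTB41 were above the control with E. coli 83972 and below it with DRB. ZBTB44, at 6.98, 7.16 and 6.05 (−0.93), lay just inside 2-fold and ZBTB1, at −1.05, just past it. The remaining 7 lay between −0.20 (ZBTB40) and −0.54 (ZBTB39).

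The count of 9 rests on the choice of 1 probe set per gene. With the mean over all probe sets of a gene, dim ones included, 2 of 24 members were at least 2-fold lower. This share was near the 7.08% of all genes. With the next brightest set the count was 3 of 13, against 7.92%. With plain-suffix sets only it was 4 of 12, against 11.6%. With centring on poly-A spike-ins, which read 0.84 higher on the DRB array and shift all genes alike, 22 of 26 were lower, against 32.7% of all genes. By the mean over all probe sets ZBTB6, ZBTB11 and ZBTB5 differed by −0.92, −0.76 and −0.75 with DRB, under 2-fold. Their second sets, below the filter, differed by −0.06, −0.21 and 0.14, and the other sets of ZBTB24 by −0.03 and −0.04.

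**Figure D3:**
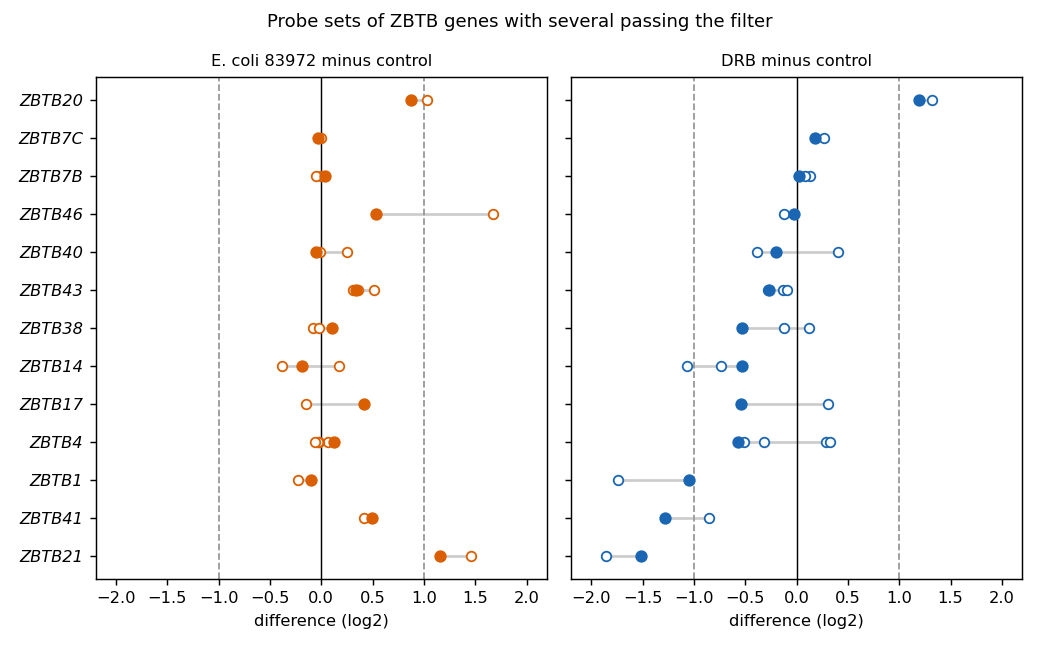
Log2 difference from the control array (horizontal axes) for each probe set that passed the filter, for the 13 ZBTB genes with several, with E. coli 83972 on the left and DRB on the right. Filled points are the probe set that represents the gene, open points the others, and dashed lines mark 2-fold; the sets of ZBTB20 and ZBTB21 lie close together while those of ZBTB46 span from 0.54 to 1.67 with E. coli 83972.

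Probe sets show how far these values hold within a gene. Of the 93 probe sets 48 passed the filter, and 13 genes had more than 1 of them. With DRB 12 of the 48 were at least 2-fold lower, in 10 genes, and 2 at least 2-fold higher, both of ZBTB20. Of all 24380 probe sets of named genes that passed the filter, 8.44% were lower and 0.250% higher by this measure. The gene added by this count is ZBTB14, a repressor that pairs with ZBTB21. Its 3 probe sets read 5.34, 4.85 and 5.53 on the control array and 4.81, 4.11 and 4.46 with DRB, differences of −0.53, −0.74 and −1.06. Of the 10 members called in either direction with DRB 4 had several probe sets that passed the filter. In ZBTB1, ZBTB20 and ZBTB21 all of these were past 2-fold in one direction, and in ZBTB41 the second was under 2-fold. With E. coli 83972 4 of the 48 sets were at least 2-fold higher than control, in ZBTB20, ZBTB21 and ZBTB46, and 1 lower, that of ZBTB18, against 1.87% and 0.587% of all probe sets. Between the treated arrays 12 sets in 10 genes were higher with E. coli 83972 and 0 lower, against 10.9% and 0.521%. The ZBTB46 set counted here and against control, at 4.29, 5.96 and 4.17, passed the filter only on the E. coli 83972 array. Both counts thus carry the choice made by the filter.

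Several members had probe sets with DRB differences on both sides of 0. The 5 sets of ZBTB4 lay between −0.57 and 0.32, averaging −0.16 ± 0.43 (SD over these 5). Those of ZBTB40 lay at −0.39, −0.20 and 0.40, those of ZBTB38 at −0.53, −0.13 and 0.12, and those of ZBTB17 at −0.54 and 0.30. With E. coli 83972 the sets of ZBTB4 lay between −0.06 and 0.12. The 4 sets of ZBTB43 were alike in both comparisons, with means of 0.38 ± 0.09 and −0.19 ± 0.09.

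The 15 members below the filter gave no difference of 2-fold from the control. Their values lay between 3.15 and 4.68 on all arrays, where differences are compressed. They were ZBTB3, ZBTB7A, ZBTB8B, ZBTB9, ZBTB10, ZBTB12, ZBTB16, ZBTB22, ZBTB25, ZBTB26, ZBTB32, ZBTB37, ZBTB42, ZBTB48 and ZBTB49. Among them ZBTB16, known as PLZF and a mark of innate-like T cells, read 3.40, 3.21 and 3.27, and ZBTB32, also a lymphocyte gene, 4.30, 4.03 and 4.37. Both members known for binding telomere repeats, ZBTB10 and ZBTB48, are in this set. ZBTB10 read 3.39 on the control array, 4.35 with E. coli 83972 and 3.15 with DRB, and its 0.97 over control was the largest increase of the set; the treated arrays differed by 1.21. ZBTB3 had the largest decrease with DRB, from 4.27 to 3.46 (−0.81).

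The direct comparison of E. coli 83972 with DRB follows from the other 2, since it uses the same arrays. Of the 26 members 8 were at least 2-fold higher with E. coli 83972 (30.8%) and 0 lower, against 12.3% and 0.386% of all genes. With the mean over all probe sets of a gene 4 of 24 were higher, against 9.27%, and with centring on poly-A spike-ins 20 of 26, against 33.7%. The median was 0.63, against −0.07. ZBTB21 led at 2.67, followed by ZBTB11 at 1.91, ZBTB41 at 1.78, ZBTB33 at 1.71, ZBTB5 and ZBTB24 at 1.65 each, ZBTB6 at 1.504 and ZBTB44 at 1.10. ZBTB18 differed by 0.07, and ZBTB20 (−0.32), ZBTB7C (−0.21) and ZBTB47 (−0.06) were the 3 below 0. With centring on poly-A spike-ins these 3 were above 0, at 0.54, 0.66 and 0.80, and ZBTB18 was at 0.93. With centring on hybridization spike-ins the 3 stayed below 0, at −0.43, −0.31 and −0.17, and ZBTB18 was at −0.03. The technical standard deviation, taken per probe set as before, was 0.17 (robust) or 0.35 (plain).

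Several families were read beside the ZBTB genes. Of 246 numbered ZNF genes that passed the filter, the larger class of zinc finger genes, 71 (28.9%) were at least 2-fold lower with DRB and 0 higher, with a median of −0.47. By the brightest probe set of each gene their share lies between that of all genes and that of the ZBTB members. With 26 members and single arrays no test of the difference was made. With E. coli 83972 2 ZNF genes were higher and 2 lower (0.813% each), against 1.91% and 0.652% of all genes. BTB zinc finger genes with other names were 8 in number, of which 7 passed the filter. With DRB 4 of these were at least 2-fold lower, against 10.2% of all genes, with a median of −1.05. BCL6, the repressor of germinal centre B cells, read 7.79 on the control array, 8.60 with E. coli 83972 and 5.55 with DRB (0.82 and −2.23). Its order over the arrays was that of ZBTB21 and of many other members, such as ZBTB11, ZBTB33 and ZBTB41. MYNN read 6.88, 6.98 and 5.43 (−1.45 with DRB) and GZF1, which responds to the growth factor GDNF, 7.27, 6.98 and 5.86 (−1.41). ZNF131 was the fourth, at −1.05.

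**Figure D4:**
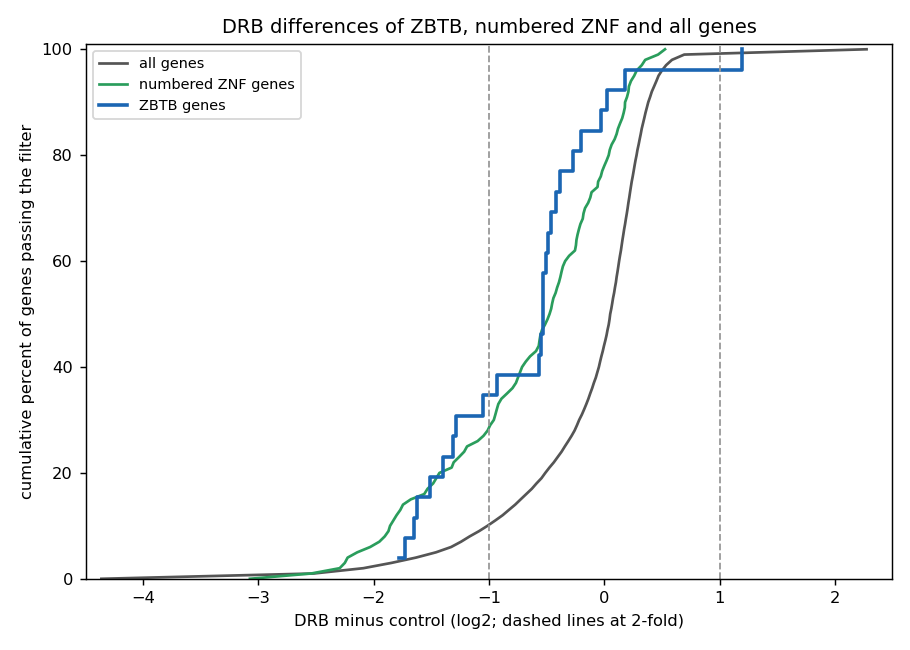
Cumulative percent of genes that passed the filter (vertical axis) against the DRB difference from control on the log2 scale (horizontal axis), for 26 ZBTB genes, 246 numbered ZNF genes and all 11653 genes, with dashed lines at 2-fold. At the lower line the curves stand at 34.6%, 28.9% and 10.2%, with each gene read by its brightest probe set.

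Genes of the corepressor complexes that BTB domains recruit stood near the background. Of 20 measured 19 passed the filter, and 2 were at least 2-fold lower with DRB (10.5%, near the 10.2% of all genes). They were the scaffold genes RCOR1, at 7.22, 7.38 and 5.84 (−1.37), and SIN3B, at 7.83, 7.85 and 6.66 (−1.17). HDAC4, a deacetylase that binds several BTB repressors, differed by −0.89. The histone deacetylase genes HDAC1, HDAC2 and HDAC3 differed by at most 0.26 with DRB. With E. coli 83972 1 of 19 was at least 2-fold higher, against 1.91% of all genes. It was CHD4, the helicase of the NuRD complex, at 7.62, 8.96 and 8.38 (1.34), and the next were HDAC1 (−0.47) and HDAC3 (−0.35).

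Of 11 measured genes for turnover or partners of BTB proteins 10 passed the filter. With DRB 3 were at least 2-fold lower, against 10.2% of all genes. These were the insulator gene CTCF (−1.63), the p21 gene CDKN1A (−1.22) and RBBP6 (−1.003), a ligase that targets ZBTB38. In the same comparison 1 was higher, against 0.129% of all genes. It was HUWE1, a ligase of MIZ1, at 6.31, 7.26 and 7.59 (1.29). With E. coli 83972 the one past 2-fold, against 1.91% of all genes higher, was MYC, at 9.56, 10.80 and 9.55 (1.25), followed by HUWE1 (0.95) and MAX (0.51). CUL3, the ubiquitin ligase scaffold that binds BTB domains, read 9.49, 9.32 and 9.13.

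Neighbouring members were read side by side. In the RefSeq gene order of GRCh38.p14, 3 pairs of members lie next to each other among protein-coding genes. ZBTB6 was 3.44-fold lower with DRB, while its neighbour ZBTB26 stayed below the filter at 3.68, 3.81 and 3.93. ZBTB43 and ZBTB34 both passed the filter and differed by −0.27 and −0.38 with DRB. ZBTB8A read 6.19, 6.22 and 5.69 and its neighbour ZBTB8B was below the filter, at 3.39, 3.51 and 3.40. The promoter windows of ZBTB1 and ZBTB25, of 300 bases with 50 past the start, overlap on opposite strands by up to 148 bases. ZBTB1 was 2.07-fold lower with DRB, and ZBTB25 was below the filter at 4.31, 4.57 and 4.12.

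The upstream windows of the family were searched for short motifs on both strands. The table held 68 windows for 35 of the 41 members. Their median content was 62.8% G or C with 16.5 CpG pairs, against 58% and 11 over all 35116 windows of the same length. The 49 windows of the 22 members that also passed the filter had medians of 58.4% and 12. A GC box (GGGCGG) was in 39 of the 68 (57.4%, against 42.6% of all windows), a CCAAT box (CCAAT) in 26 (38.2%, against 32%) and an ETS core (CCGGAA) in 15 (22.1%, against 14.5%). An NF-κB core (GGANTTTCC) was in 2 windows (2.94%, against 1.45%), both of ZBTB25. An AP-1 motif (TGANTCA) was in 4 windows (5.88%, against 6.57%), a cyclic AMP response element (TGACGTCA) in 2 (2.94%, against 1.65%) and a TATA box (TATAAA) in 6 (8.82%, against 10.7%). Windows of 1 gene can overlap, and a match describes letters, not binding.

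The labelled cell type was checked against its markers. All 7 renal markers measured passed the filter, among them PAX8 at 7.07, 7.23 and 6.10, the keratin gene KRT18 at 11.63, 11.55 and 11.67, and VIM at 12.85, 12.76 and 12.79. Of 6 leukocyte markers 2 passed the filter, CD68 and CD3E. CD68 read 9.08, 8.998 and 9.41 on the control, E. coli 83972 and DRB arrays, and PTPRC, which defines leukocytes, read 3.41, 3.43 and 3.52. Of 5 neuron and glia markers 3 passed, among them TUBB3 at 8.58, 8.26 and 8.73. Of 3 endothelial markers 2, and of 4 fibroblast markers 1, and 0 of these markers differed from control by 2-fold on either treated array, the largest difference being that of PAX8 with DRB (−0.98). In bulk RNA fewer cells of a type and less RNA per cell cannot be told apart.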

How the data were processed

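The values are probe-set values on a log2 scale that the authors deposited. They were made with RMA and Partek, per the submitters' processing notes, whose versions are not stated there. RMA brings arrays to nearly one distribution, so a change common to most transcripts is reduced, and it compresses differences at low signal. Array medians lay between 4.87 and 4.90.

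Probe sets were named by the platform annotation, with symbols updated through Entrez identifiers from a RefSeq table of GRCh38.p14. Of 49386 probe sets 45259 had 1 symbol, 1327 several and 2800 were not listed. Differences were taken in pandas 2.3.3, with no p-value, since each group has 1 array. The calculation was tested on simulated data. The 3 comparisons were recomputed under 12 alternatives. Named genes are ZBTB18, ZBTB20, members past 2-fold, the 3 largest differences each way per comparison, members whose probe sets disagree by over 1, and the largest of each other list; those named for role, as neighbours or as examples below the filter were chosen after their values were seen. Members, lists and tests were chosen with earlier results of these data known.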

Additional observations from a re-analysis of the deposited data

How the results depend on the processing

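No paired analysis was possible because the groups share only 1 replicate number. The 12 alternatives changed the probe set, the filter, the scaling or the fold. Values of single members past 2-fold were counted by direction and side of 2-fold, or of 1.5-fold or 3-fold in those settings. Those under 2-fold were counted by whether they passed that threshold or moved by less than the technical standard deviation. By this 271 values held, 28 dropped under the threshold, 3 passed it, and 21 under 2-fold moved by more than that deviation. Changes of filter or fold left each value as it was, so in these settings no value could move. Without the filter, and with the filter on the mean, 30 values held in each. At 1.5-fold 28 held and 2 passed, and at 3-fold 20 held and 10 dropped. Of members past 2-fold 0 changed direction. A next brightest set below the filter was not counted. Those of ZBTB5 and ZBTB18, 0.14 and 0.17 above control with DRB, were such sets. Percentages are those of all genes in the same setting and direction. With the mean over probe sets (24 members) 0 were lower with E. coli 83972 (0.436%), 2 lower with DRB (7.08%), and 4 higher with E. coli 83972 than with DRB (9.27%). With plain-suffix sets only (12 members) these were 0 (0.636%), 4 (11.6%) and 5 (14.4%), and 0 were higher than control with E. coli 83972 (2.37%) or DRB (0.202%). With the next brightest set (13 members) 3 were higher (2.06%) and 0 lower (0.601%) with E. coli 83972, 3 were lower with DRB (7.92%; median −0.13), and 4 were higher with E. coli 83972 than with DRB (10.7%; median 0.39). Without the filter that last median was 0.45, and with lowess correction 0.81. Centring on hybridization or all spike-ins left 0 higher with E. coli 83972 (1.11% and 1.15%) or DRB (0.0429% and 0.0172%), with medians of −0.27 and −0.24 for E. coli 83972 and −0.77 and −0.93 for DRB. Centring on poly-A spike-ins gave 0 higher (0.00858%) and 22 lower (32.7%) with DRB (median −1.37), and 20 higher with E. coli 83972 than with DRB (33.7%; median 1.49). At 1.5-fold 3 were higher with E. coli 83972 (5.19%), and 14 higher than with DRB (19.3%). At 3-fold 0 were higher (0.712%) and 0 lower (0.112%) with E. coli 83972, and 0 higher (0.00858%) and 4 lower (4.32%) with DRB. The changes of fold and of the sets kept follow from their construction; otherwise the cause was not tested. With 1 array a group the spread between cultures is unknown.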
